A study of Mus musculus with 6 samples.

Results

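The insulin-like growth factor (IGF) ligands, receptors and binding proteins were followed in bone marrow mesenchymal progenitors of irradiated mice that lack laminin alpha 4 or carry it. The 10 genes were taken by name from the gene table, each matching exactly 1 of its 25491 genes. They are the ligand genes Igf1 and Igf2, the receptor genes Igf1r and Igf2r, and the binding protein genes Igfbp2, Igfbp3, Igfbp4, Igfbp5, Igfbp6 and Igfbp7. Bulk RNA-seq compared 3 Lama4-/- libraries with 3 wild type libraries. Both groups were C57BL/6J mice aged 14 weeks, killed 6 weeks after a sublethal dose of 7 Gy, so the controls were irradiated too and no unirradiated library is analysed here. Cells were sorted as CD45-TER119-CD31-CD44-CD51+SCA1-. The labels describe the allele no further than Lama4-/- and leave unsaid whether each library is a separate mouse. The p-values below therefore reflect variation among these libraries, which may be technical.

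IGF1 and IGF2 are secreted growth factors. Both signal through the tyrosine kinase receptor encoded by Igf1r, whereas the mannose 6-phosphate receptor encoded by Igf2r binds IGF2 and carries it to lysosomes. The binding proteins hold IGFs in the circulation and in the matrix and are cut by proteases that release the ligand. In bone, IGF1 promotes the growth and matrix production of osteoblast lineage cells, and IGFBP4 and IGFBP5 are among the binding proteins that these cells make.

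Total counts were 12979711 to 15663957 in Lama4-/- libraries and 6263830 to 13409177 in wild type libraries, the lowest being wild type replicate 2. Counts of the targeted gene Lama4 were 0, 0 and 0 in Lama4-/- libraries, against 607, 236 and 438 in wild type libraries. Stromal markers were abundant in both groups, led by the collagen gene Col1a2 at a mean of 56107 and 58745 CPM (counts scaled to library size) in Lama4-/- and wild type libraries. Of the 11 stromal markers, all tested, 10 had a negative log2 fold change, as did 7523 of 14465 tested genes. For 7 of them each Lama4-/- library was lower than any wild type library, as for 12% of tested genes. Among those 7, and named after their values were seen, are Sox9 and Pdgfra. Sox9 was at 401, 590.1 and 492 CPM in Lama4-/- libraries, against 759, 1189 and 969 CPM in wild type libraries. Pdgfra was at 60.02, 50.2 and 63.2 CPM in Lama4-/- libraries, against 137, 87.8 and 104 CPM in wild type libraries. Most stromal markers were thus lower beside the IGF genes described next, and their part in those differences was not tested. These marker values are as counted, without removal of the transcript length trend described below. The summed level of the 11 markers overlapped, at 60846 to 149783 CPM in Lama4-/- libraries and 102505 to 125962 CPM in wild type libraries. Col1a1, second in level, averaged 43832 CPM in Lama4-/- libraries and 38825 CPM in wild type libraries. Ptprc (CD45) and Pecam1 (CD31) stayed at or below 4.09 CPM in every library. Cd44, the gene of a marker selected against, had 53.2, 55.6 and 82.0 CPM in Lama4-/- libraries, against 139, 70.6 and 152 CPM in wild type libraries.

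Igf1, Igf1r, Igf2r and Igfbp5 were lower in each Lama4-/- library than in any wild type library, whereas the groups overlapped for the other 6 genes. By the fitted fold change, Igf1r in Lama4-/- libraries was at 25.1% of its wild type level, Igf2r 34.0%, Igfbp5 35.2% and Igf1 37.8%. These 4 genes had an unadjusted p under 0.05 in edgeR's quasi-likelihood test, where 8.34% of the 14465 genes tested were lower at that p, and all 10 genes were among those tested. Groups lay apart with each Lama4-/- library lower for 12% of tested genes, and higher for 10.3%. None of the 10 passed an adjusted p of 0.05 in edgeR, which called 0.00691% of tested genes, Lama4 alone. DESeq2 called the same 4 lower and none higher at an adjusted p of 0.05, where it called 4.64% of genes, 3.56% lower and 1.08% higher. The median log2 fold change of the 10 genes was -0.82, beside -0.04 over all tested genes. In bulk samples, fewer cells of a type and less RNA per cell cannot be told apart.

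**Figure D1:**
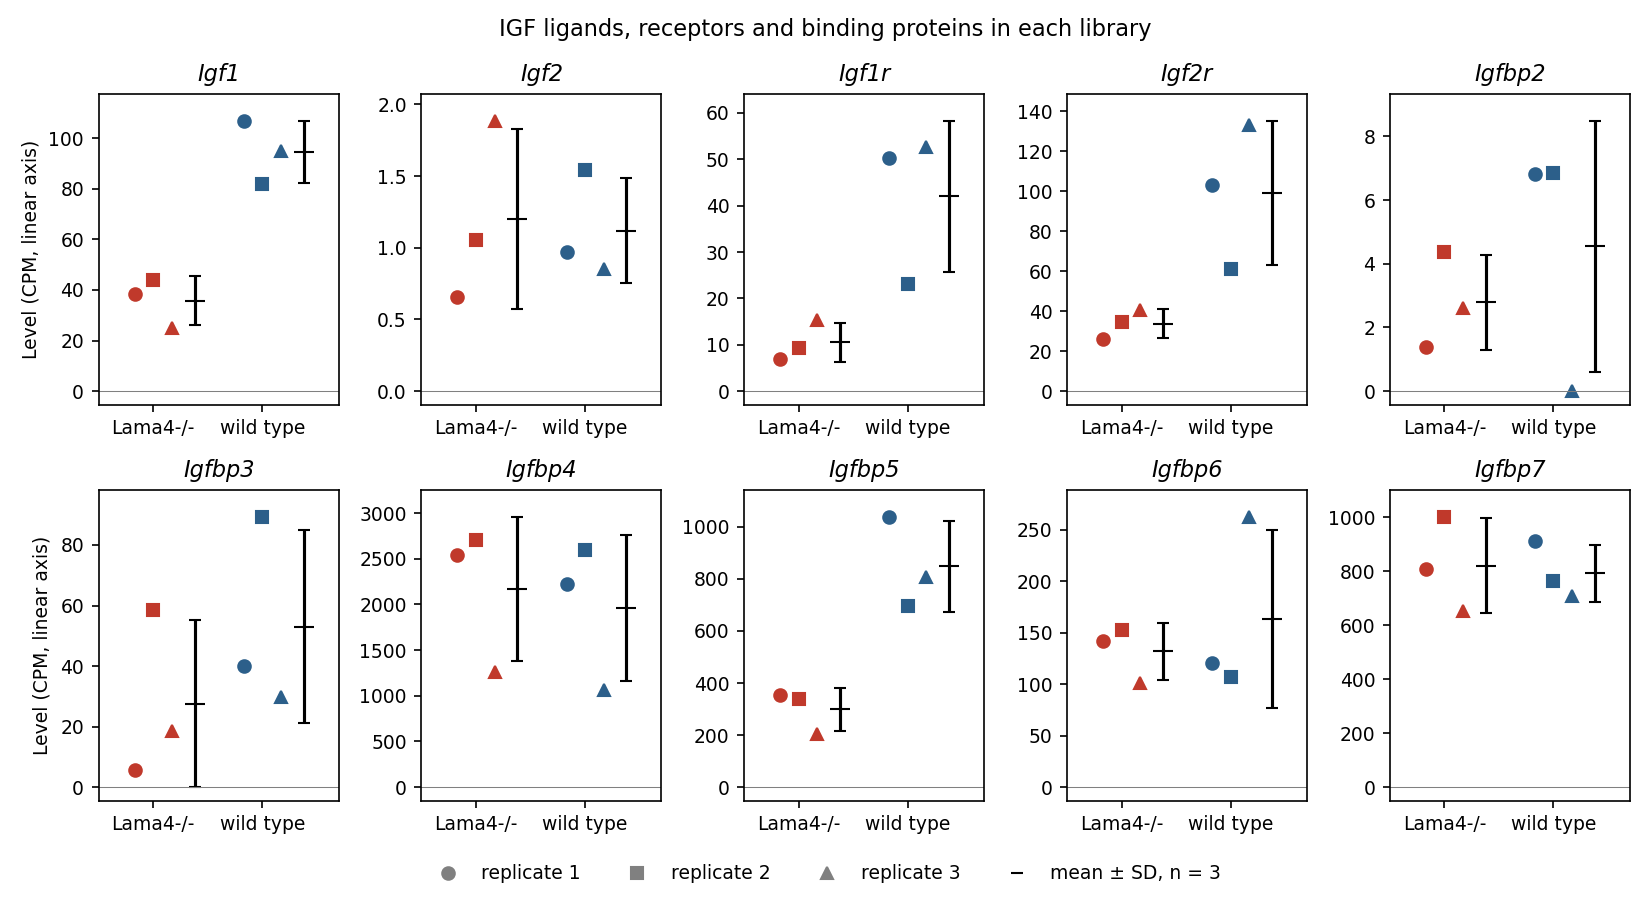
Level of each IGF gene in each library, in CPM on a linear axis, Lama4-/- left and wild type right. Points are libraries, with shape showing the replicate, and bars are mean ± SD (n = 3). For Igf1, Igf1r, Igf2r and Igfbp5 the 3 Lama4-/- points lie below the 3 wild type points.

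The promoters of the lower receptors and Igfbp5 are printed beside those of Igfbp4 and Igfbp7, whose groups overlapped, to show the sequence just before each start (RefSeq, GRCm38.p6, 5′ to 3′ on the gene's strand). Capitals mark matches, on either strand, to the GC box spelled GGGCGG, to the TATA box spelled TATAAA, to the E-box spelled CACGTG, or to the box spelled CCAAT. Of 32817 RefSeq windows of 250 bases, 32.7% hold the GC box, 12.4% the TATA box, 6.02% the E-box and 33.8% the CCAAT box. The Igfbp5 window is shown up to its first annotated exon base, and that of Igf1 lies in annotated exons and is not shown. RefSeq starts can differ from the GENCODE gene starts given with each gene.
Igf1r, chr7:67952007-67952256, plus strand: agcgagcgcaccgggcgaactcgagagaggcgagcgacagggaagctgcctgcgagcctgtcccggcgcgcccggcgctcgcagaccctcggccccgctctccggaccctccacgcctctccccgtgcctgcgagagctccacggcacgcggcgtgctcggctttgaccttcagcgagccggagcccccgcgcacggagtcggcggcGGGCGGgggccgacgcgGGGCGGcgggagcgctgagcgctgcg
Igf2r, chr17:12769707-12769956, minus strand: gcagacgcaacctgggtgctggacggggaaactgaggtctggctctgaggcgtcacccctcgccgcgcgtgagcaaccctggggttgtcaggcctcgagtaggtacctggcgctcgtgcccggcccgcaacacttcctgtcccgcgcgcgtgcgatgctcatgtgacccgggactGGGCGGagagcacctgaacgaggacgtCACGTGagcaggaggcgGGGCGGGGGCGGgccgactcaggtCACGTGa
Igfbp5, chr1:72874885-72875115, minus strand: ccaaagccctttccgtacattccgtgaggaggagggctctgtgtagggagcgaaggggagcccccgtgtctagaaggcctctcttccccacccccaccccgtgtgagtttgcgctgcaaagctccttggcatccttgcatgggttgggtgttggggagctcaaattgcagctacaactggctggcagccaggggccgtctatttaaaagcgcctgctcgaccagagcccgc
Igfbp4, chr11:99040994-99041243, plus strand: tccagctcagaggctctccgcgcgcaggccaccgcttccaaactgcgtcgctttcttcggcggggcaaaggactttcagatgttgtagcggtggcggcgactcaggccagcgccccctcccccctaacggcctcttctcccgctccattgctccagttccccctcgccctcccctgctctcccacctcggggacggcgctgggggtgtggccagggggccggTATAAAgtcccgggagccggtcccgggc
Igfbp7, chr5:77408046-77408295, minus strand: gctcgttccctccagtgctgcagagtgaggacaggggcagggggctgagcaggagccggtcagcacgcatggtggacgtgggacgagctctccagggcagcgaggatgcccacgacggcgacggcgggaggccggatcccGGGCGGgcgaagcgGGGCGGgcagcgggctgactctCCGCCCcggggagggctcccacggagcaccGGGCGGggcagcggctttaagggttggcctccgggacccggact

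Igf1r holds 2 GC boxes and Igf2r 3 GC boxes and 2 E-boxes, whereas the Igfbp5 window shown holds none of the 4 motifs. Igfbp4 holds a TATA box 28 bases before its start and Igfbp7 holds 4 GC boxes. GC boxes stand in both receptors, whose groups lay apart, and in Igfbp7, whose groups overlapped. Adjacent boxes in Igf2r appear as 1 run of capitals. These matches are letters in a window and were not tested as binding sites.

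Igf1, the ligand gene with the higher level, lies on chromosome 10 at 87858265 to 87937042 (GRCm38, plus strand). Its level was 38.3, 43.9 and 25.1 CPM in Lama4-/- replicates 1, 2 and 3, against 107, 82.03 and 94.8 CPM in wild type replicates 1, 2 and 3. The highest Lama4-/- library was well below the lowest wild type library. Its log2 fold change was -1.40 (SE 0.27, 95% interval -2.03 to -0.78, edgeR adjusted p = 0.237), and over leave-one-out fits it ran from -1.58 to -1.20. DESeq2 gave an adjusted p of 0.000603. The authors' deposited table lists Igf1 at -1.30 with an adjusted p of 0.000479, in a list where 4.75% of genes with an adjusted p were called lower and 1.88% higher.

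Igf2, the fetal growth ligand expressed from the paternal allele in mouse, was near the limit of detection. It had 11, 14 and 26 counts (0.660, 1.05 and 1.89 CPM) in Lama4-/- libraries, against 13, 9 and 11 counts (0.972, 1.54 and 0.849 CPM) in wild type libraries. The groups overlapped, and the log2 fold change of 0.11 had an interval of -2.18 to 2.39, too wide to read a direction. Of its exon bases, 62.8% are shared with the same-strand gene model Gm49394, so its count is uncertain. Within the library, 3 counts corresponded to 0.180 to 0.226 CPM in Lama4-/- libraries and 0.224 to 0.514 CPM in wild type libraries.

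Igf1r, the signalling receptor for both ligands, lies on chromosome 7 at 67952827 to 68233668 (plus strand). It was at 7.02, 9.40 and 15.2 CPM in Lama4-/- libraries, against 50.3, 23.1 and 52.5 CPM in wild type libraries. Wild type replicate 2, the shallowest library, was the lowest of its group and still above each Lama4-/- library. Its log2 fold change of -1.99 (SE 0.45, interval -3.04 to -0.94) was the lowest of the 10, with an edgeR adjusted p of 0.237 and a DESeq2 adjusted p of 0.00334. The authors' deposited table lists -1.66 with an adjusted p of 0.00269.

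Igf2r, which clears IGF2 and in mouse is expressed from the maternal allele, lies on chromosome 17 at 12682406 to 12769664 (minus strand). Its levels were 25.9, 34.7 and 40.6 CPM in Lama4-/- libraries, against 103, 61.1 and 133 CPM in wild type libraries. The order within groups was that of Igf1r, replicate 1 lowest and replicate 3 highest among Lama4-/- libraries, and replicate 2 lowest and replicate 3 highest among wild type libraries. The log2 fold change was -1.56 (SE 0.33, interval -2.34 to -0.78, edgeR adjusted p = 0.237), and DESeq2 gave an adjusted p of 0.00284. The authors' deposited table lists -1.39 with an adjusted p of 0.00230. The noncoding RNA gene Airn runs antisense to Igf2r without sharing an exon base. Igf1r counts per 100 Igf2r counts were 27.1, 27.1 and 37.6 in Lama4-/- libraries, against 48.7, 37.8 and 39.5 in wild type libraries. The highest Lama4-/- ratio, 37.57, and the lowest wild type ratio, 37.82, were too close to read a difference between genotypes.

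Igfbp5, which binds matrix and had the smallest p of the 10 genes, lies on chromosome 1 at 72857932 to 72874884 (minus strand). It was at 355, 338 and 204 CPM in Lama4-/- libraries, against 1039.6, 696 and 808 CPM in wild type libraries. The groups were far apart relative to their spread, at 299 ± 82.6 and 848 ± 175 CPM (SD, n = 3 each). The log2 fold change was -1.50 (SE 0.27, interval -2.14 to -0.87, edgeR adjusted p = 0.237), and DESeq2 gave an adjusted p of 8.24e-05. The authors' deposited table lists -1.40 with an adjusted p of 5.93e-05. Like Igf1, Igfbp5 was lowest in replicate 3 among Lama4-/- libraries and in replicate 2 among wild type libraries. Igfbp2, its neighbour on chromosome 1 at 72824503 to 72852474 on the plus strand, overlapped between genotypes.

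Igfbp4, an inhibitor of IGF action until proteases cut it, had the most counts of the 10 genes and no difference by genotype larger than its spread. It was at 2540.1, 2709 and 1263 CPM in Lama4-/- libraries, against 2225, 2595 and 1064 CPM in wild type libraries. Replicate 3 was the lowest in both genotypes, and the groups overlapped. Lama4-/- over wild type gave a log2 fold change of 0.15 (interval -0.80 to 1.09, edgeR adjusted p = 0.921). Igfbp5 counts per 100 Igfbp4 counts were 13.96, 12.5 and 16.1 in Lama4-/- libraries, against 46.7, 26.8 and 75.9 in wild type libraries. These ratios did not overlap, and the transcript length trend described below was not removed from them.

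Igfbp7, a secreted protein of low IGF affinity, was at 809, 1003 and 653 CPM in Lama4-/- libraries, against 911, 763 and 707 CPM in wild type libraries. The lowest and the highest library were both Lama4-/-. Its interval was the narrowest of the 10, a log2 fold change of 0.05 with an interval of -0.46 to 0.55 (edgeR adjusted p = 0.949). It shares 85 exon bases, 7.03% of its exons, with Polr2b on the opposite strand, and the libraries do not keep strand.

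Igfbp6, which prefers IGF2, was at 142, 153 and 101 CPM in Lama4-/- libraries, against 120.4, 107 and 263 CPM in wild type libraries. Wild type replicate 3 stood above the other 5 libraries, which overlapped. Lama4-/- over wild type gave a log2 fold change of -0.31 (interval -1.17 to 0.56, edgeR adjusted p = 0.794) and was 0.22 without that library.

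Igfbp3, the main carrier of IGF in blood, was at 5.70, 58.5 and 18.5 CPM in Lama4-/- libraries, against 39.9, 89.4 and 29.7 CPM in wild type libraries. Replicate 2 was the highest in both genotypes, and the Lama4-/- libraries spanned a 10.3-fold range, against 3.01-fold in wild type libraries. The log2 fold change was -0.94 (interval -2.80 to 0.92, edgeR adjusted p = 0.689). Without Lama4-/- replicate 2 it was -2.13 (edgeR adjusted p = 0.247), and without wild type replicate 2 it was -0.34.

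Igfbp2, a binding protein that prefers IGF2, was scarce, at 1.38, 4.36 and 2.61 CPM in Lama4-/- libraries, against 6.81, 6.85 and 0 CPM in wild type libraries. Wild type replicate 3 had 0 counts, which allows up to 0.231 CPM by counting error alone. The log2 fold change of -0.70 had an interval of -4.20 to 2.79 (edgeR adjusted p = 0.895).

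**Figure D2:**
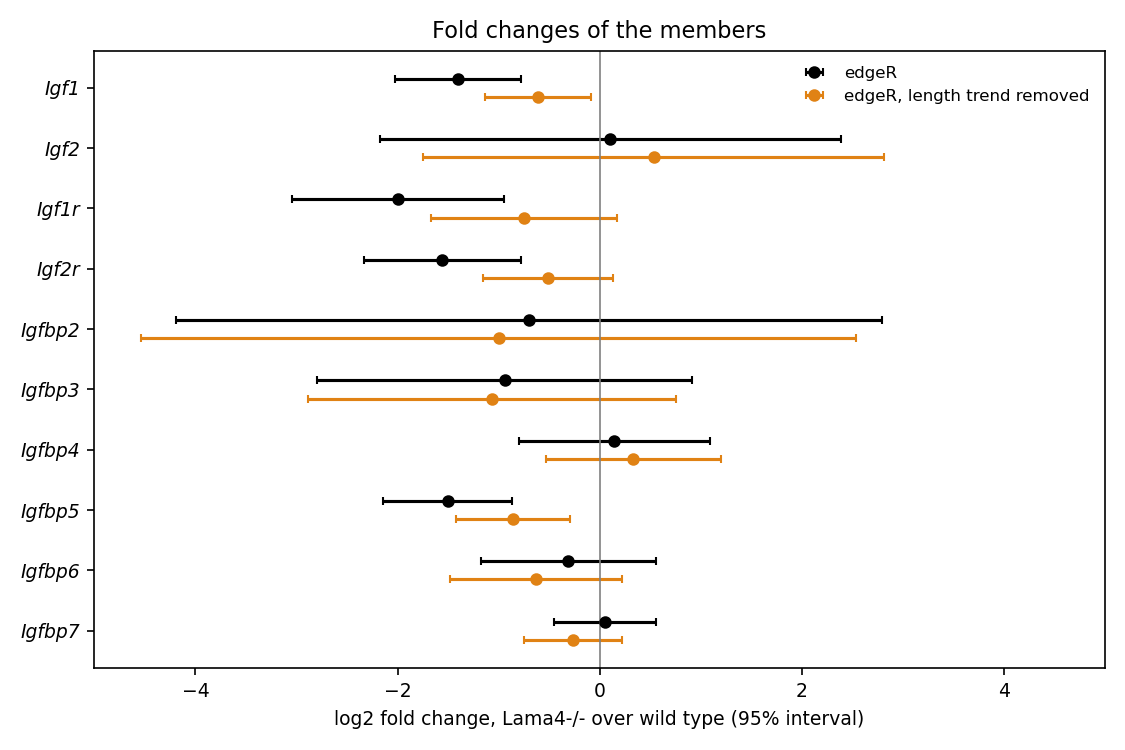
Log2 fold change of each IGF gene, Lama4-/- over wild type, with 95% intervals from edgeR, as counted (black) and with the transcript length trend removed (orange). As counted, the intervals of Igf1, Igf1r, Igf2r and Igfbp5 lie below 0, and with the trend removed those of Igf1 and Igfbp5 do.

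Transcript length moved with the genotype difference across the whole table, and the 4 lower genes have the 4 longest transcripts of the 10. Over 14458 tested genes with an annotated length, the log2 fold change had a Spearman rho of -0.46 with the longest transcript, a description across genes that share libraries. Among 10 length bins of near-equal gene number, the median log2 fold change was 0.34 in the bin of shortest transcripts and -0.92 in the bin of longest. Igf1, Igf1r and Igf2r, with longest transcripts of 7052, 11409 and 8887 bases, fall in the longest bin, and Igfbp5, with 6006 bases, falls in the next longest, whose median was -0.58. Each of the 4 was lower than the median of its own bin. The lower quartile was -1.45 in the longest bin and -1.06 in the next longest. Igf1, at -1.40, lay above the lower quartile of its bin, and Igf1r, Igf2r and Igfbp5 lay below theirs.

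With the trend removed in each library, rho was 0.02 and the fold changes of the 4 genes were smaller. Igfbp5 was at -0.86 (interval -1.42 to -0.29, unadjusted p = 0.00843 in edgeR) and Igf1 at -0.61 (interval -1.13 to -0.09, unadjusted p = 0.0274 in edgeR). Igf1r was at -0.75 (interval -1.67 to 0.17) and Igf2r at -0.51 (interval -1.15 to 0.13). In that fit 3.15% of genes were lower and 4.94% higher at an unadjusted p under 0.05. The 3 shortest members, Igfbp6, Igfbp7 and Igfbp2, were at -0.63, -0.26 and -1.0, with intervals that include 0.

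**Figure D3:**
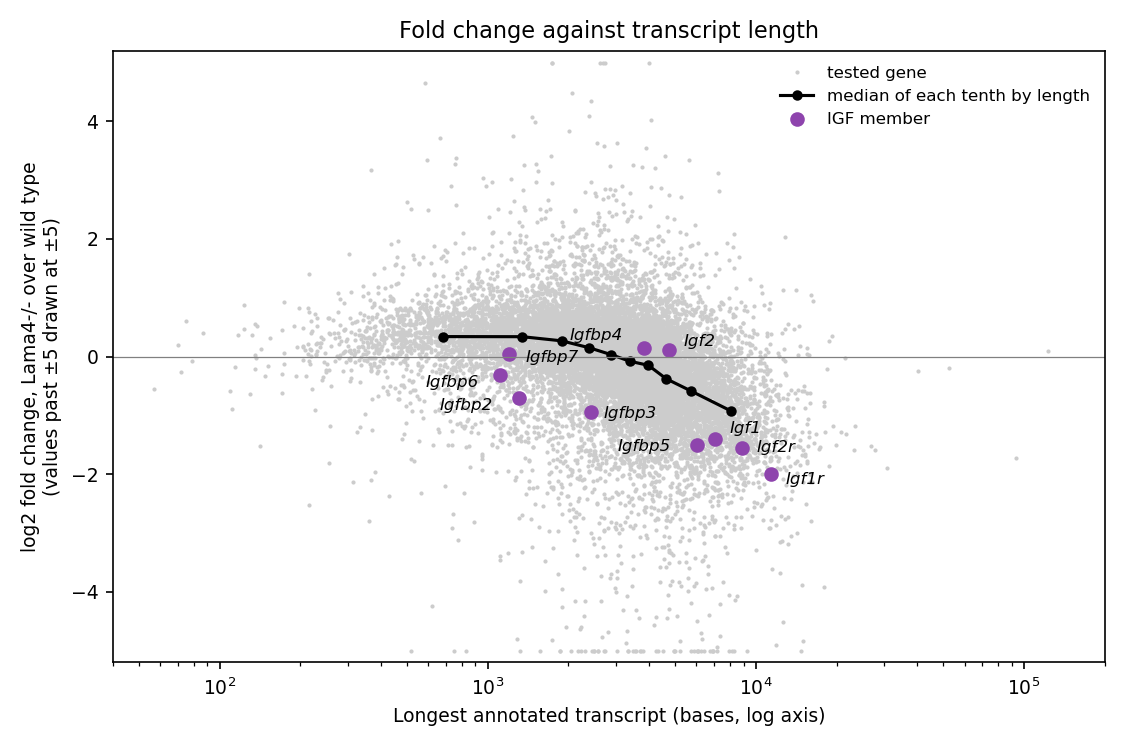
Log2 fold change, Lama4-/- over wild type, against the longest annotated transcript in bases on a log axis. Grey points are tested genes, the black line joins the medians of 10 length bins (0.34 to -0.92), and purple points are the 10 IGF genes, of which Igf1, Igf1r, Igf2r and Igfbp5 lie lowest on the right.

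Scaled per kilobase of annotated exon, Igfbp7 and Igfbp4 were the most abundant of the 10 in every library, with Igfbp7 above Igfbp4 in each. Igfbp7 averaged 680 ± 145 CPM per kb in Lama4-/- libraries and 657 ± 87.3 in wild type libraries, and ranked 51 of 25451 genes. Igfbp4 followed at 492 ± 179 in Lama4-/- libraries and 444 ± 181 in wild type libraries, and the ranges of both genes overlapped across libraries. Igfbp6 was at 119 ± 24.7 CPM per kb in Lama4-/- libraries and 147 ± 77.8 in wild type libraries. Igfbp5 was at 49.8 ± 13.8 CPM per kb in Lama4-/- libraries, below Igfbp6, and at 141 ± 29.2 in wild type libraries, within the spread of Igfbp6.

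The other 6 genes were below these 4. Igfbp3 was at 8.81 ± 8.80 CPM per kb in Lama4-/- libraries and 16.9 ± 10.2 in wild type libraries. Igf2r, at 3.63 ± 0.793 and 10.7 ± 3.89, and Igf1, at 3.61 ± 0.974 and 9.55 ± 1.25 in Lama4-/- and wild type libraries, did not differ from each other beyond their spread. Igfbp2 was at 1.51 ± 0.811 CPM per kb in Lama4-/- libraries and 2.46 ± 2.13 in wild type libraries, overlapping Igf1r at 0.629 ± 0.252 and 2.50 ± 0.975. Igf2 was lowest of the 10 at 0.210 ± 0.11 CPM per kb in Lama4-/- libraries and 0.196 ± 0.0645 in wild type libraries (all SD, n = 3).

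Within the summed level per kb of the 10 genes, Igfbp5 made up 4.10%, 3.37% and 3.51% in Lama4-/- libraries, against 10.95%, 7.83% and 10.9% in wild type libraries. The shares did not overlap. Scaling per kb divides a gene by the same length in every library, so the length trend between genotypes stays in these shares. Igf1 made up 0.268%, 0.266% and 0.262% in Lama4-/- libraries, against 0.683%, 0.560% and 0.776% in wild type libraries. Igfbp7 made up 46.4%, 49.8% and 55.9% in Lama4-/- libraries, against 47.7%, 42.7% and 47.4% in wild type libraries, and the shares overlapped. The summed CPM of the 6 binding protein genes overlapped between genotypes, at 3853, 4266 and 2242 in Lama4-/- libraries, against 4343, 4258 and 2871 in wild type libraries. Shares within a sum move against each other, so a lower share of Igfbp5 raises the others.

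**Figure D4:**
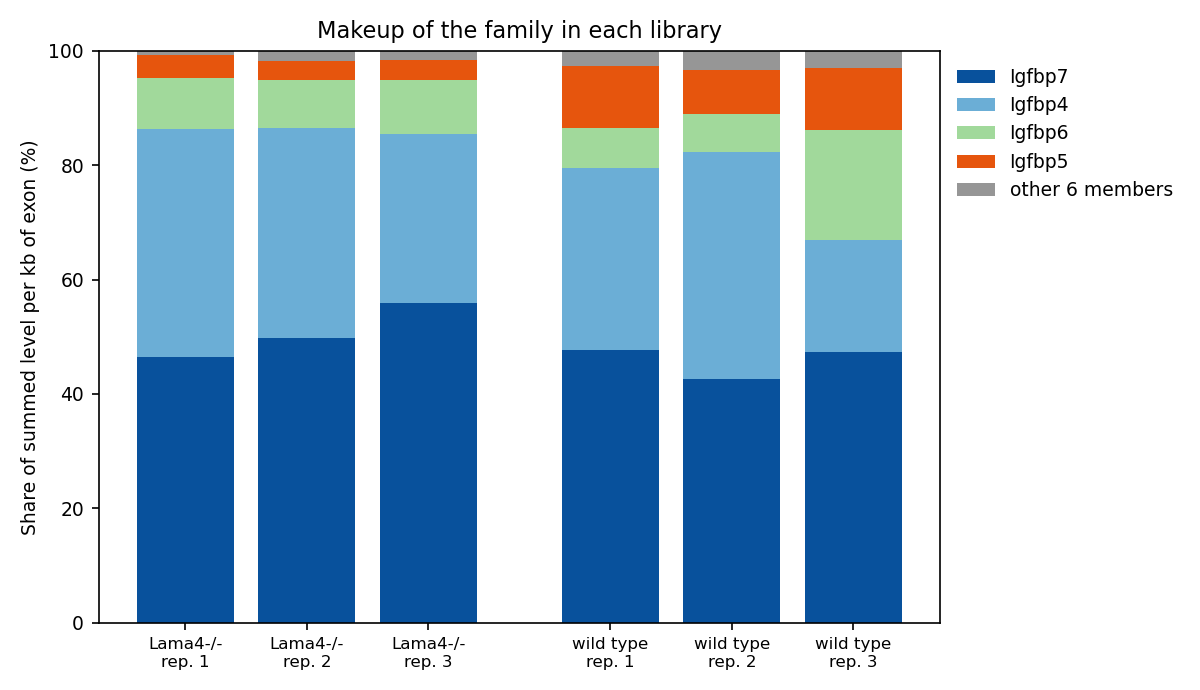
Share of each IGF gene in the summed level per kb of exon of the 10 genes, as stacked bars by library, Lama4-/- left and wild type right, on an axis in percent starting at 0. Igfbp7 and Igfbp4 fill most of each bar, and the Igfbp5 segment is 3.37% to 4.10% in Lama4-/- libraries and 7.83% to 10.95% in wild type libraries. The length trend between genotypes is not removed.

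By Pearson r of log2(CPM + 1) over the 6 libraries, among 8777 genes with a mean of at least 10 CPM, the genes most like Igf1 were Ralgapa1 at 0.999, Tgfbr1 (a TGF-beta receptor) at 0.996 and Ctdsp2 at 0.994. Tgfbr1 was at 24.2, 25.6 and 16.6 CPM in Lama4-/- libraries, against 52.4, 46.9 and 47.5 CPM in wild type libraries. Of these genes, 1.16% reached an r of 0.95 with Igf1. For Igfbp4, the member of highest CPM before scaling for length, they were Relb (an NF-kappaB subunit) at 0.985, Rcbtb2 at 0.985 and Cab39l at 0.981, all low in replicate 3 of both genotypes. The 6 libraries form 2 genotypes and differ in depth, so these values are descriptions.

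The pathway around the 10 genes was read from 8 lists of 80 genes in the table, 74 of them tested. In edgeR, 16 were lower and 3 higher at an unadjusted p under 0.05, where 8.34% of all tested genes were lower and 4.45% higher, and none passed an adjusted p of 0.05. Their median log2 fold change was -0.27, and -0.03 with the length trend removed. DESeq2 called 6 lower and 1 higher.

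Among the proteases that cut binding proteins and their inhibitors, 2 of 9 tested were lower and 1 higher at an unadjusted p under 0.05. The median was -0.11 as counted and -0.05 after length correction, where 1 was lower and 1 higher at that p. Stc2, an inhibitor of the protease PAPP-A that cuts IGFBP4, was at 44.5, 39.8 and 54.97 CPM in Lama4-/- libraries, against 21.9, 19.9 and 15.05 CPM in wild type libraries. Each Lama4-/- library was above each wild type library, the log2 fold change was 1.29 as counted (edgeR adjusted p = 0.237, DESeq2 adjusted p = 0.00284), and after length correction it was 1.53. Mmp14, a membrane-bound matrix protease, was lower in each Lama4-/- library, at a log2 fold change of -0.40 (edgeR adjusted p = 0.401). Pappa itself, named after its value was seen, was at -1.58 (unadjusted p = 0.0340 in edgeR), with overlapping groups.

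Of the binding protein relatives, Igfals, the acid-labile subunit of the circulating IGF complex, had 0 to 2.22 CPM in Lama4-/- libraries and 1.05 to 4.79 CPM in wild type libraries. Igfbpl1 was at 1.26 to 2.03 CPM in Lama4-/- libraries and 2.05 to 2.92 CPM in wild type libraries, a narrow gap with an edgeR adjusted p of 0.814. Igfbp1 is not analysed here.

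Downstream of the receptor, 4 of 14 tested genes of the insulin receptor family and its adaptors were lower and 1 higher at an unadjusted p under 0.05, the median being -0.38 as counted and -0.03 after length correction. Sos1, which couples receptors to Ras, was at 1.38, 8.72 and 2.25 CPM in Lama4-/- libraries, against 27.6, 9.93 and 20.8 CPM in wild type libraries. Grb14, an adaptor that inhibits insulin receptor signalling, was higher at 86.01, 163 and 75.7 CPM in Lama4-/- libraries, against 53.8, 70.2 and 52.9 CPM in wild type libraries. Its log2 fold change was 0.88 as counted (edgeR adjusted p = 0.332) and 0.82 with the trend removed (edgeR adjusted p = 0.557). Gab1, a docking protein, and Grb10, an adaptor that restrains growth signals, were at -1.10 and -0.89 as counted. With the trend removed Sos1, Gab1 and Grb10 were at -1.30, -0.65 and -0.43. In that edgeR fit, 0 of the 14 genes were lower and 1 higher at an unadjusted p under 0.05. Of all genes in it, 3.15% were lower and 4.94% higher. Irs1 and Irs2, the main docking proteins of the receptor, were at -0.70 and -0.39 as counted, and at 0.25 and 0.33 with the trend removed, so their direction turned. Ptpn11, a phosphatase in the same list named after its value was seen, was at -0.71.

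In the PI3K, AKT and mTOR list, 6 of 25 tested genes were lower and 1 higher at an unadjusted p under 0.05, the median being -0.27 as counted and 0.17 after length correction. Pik3r1, the regulatory subunit of PI 3-kinase, was at 65.1, 62.4 and 71.8 CPM in Lama4-/- libraries, against 121, 107 and 114 CPM in wild type libraries. The groups were narrow and far apart, with an edgeR adjusted p of 0.237 and a DESeq2 adjusted p of 0.00667. The log2 fold change was -0.78 as counted, yet 0.04 with the trend removed. Foxo1, a transcription factor that AKT keeps out of the nucleus, was at -0.64 as counted and 0.31 without the trend. Pdpk1, a kinase that activates AKT, stayed negative at -1.42 and -0.62. With the trend removed, 0 of the 25 genes were lower and 2 higher at an unadjusted p under 0.05 in edgeR. Of all genes in that fit, 3.15% were lower and 4.94% higher. Akt1, named after its value was seen, was the gene higher at that p as counted, at 1.19. Rps6, at 6.39 to 7.70 CPM in Lama4-/- libraries and 5.01 to 6.33 CPM in wild type libraries, has near-identical copies in the genome and is uncertain.

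In the growth hormone axis upstream of Igf1, none of 6 tested genes had an unadjusted p under 0.05 as counted. The median was -0.16 as counted and 0.21 after length correction, where 0 were lower and 1 higher at that p. Stat5a, a transcription factor that relays growth hormone to Igf1, was at 26.2, 20.5 and 17.9 CPM in Lama4-/- libraries, against 33.8, 39.2 and 27.0 CPM in wild type libraries (log2 fold change -0.63, and -0.40 with the length trend removed).

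Of the imprinted growth genes, 4 of 11 tested were lower at an unadjusted p under 0.05 and none higher. The median was -0.28 as counted and -0.43 after length correction. With the trend removed, 2 were lower and 0 higher at that p, beside 3.15% and 4.94% of all genes in that fit. Plagl1, a zinc finger gene of the imprinted network, was at 40.6, 81.2 and 20.6 CPM in Lama4-/- libraries, against 191, 158 and 208 CPM in wild type libraries. Its log2 fold change was -1.97 as counted (edgeR adjusted p = 0.237, DESeq2 adjusted p = 0.00192) and -1.49 after length correction (edgeR adjusted p = 0.492). Peg3, a paternally expressed zinc finger gene, was at 86.6, 115 and 39.6 CPM in Lama4-/- libraries, against 222, 221 and 356 CPM in wild type libraries, at -1.73 and -0.77 with the trend removed. Meg3, a maternally expressed noncoding RNA of 14548 bases, was at -1.84 and -0.39. Grb10, maternally expressed in most tissues, belongs to this list as well.

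In the mannose 6-phosphate pathway that Igf2r serves, 1 of 7 tested genes was lower at an unadjusted p under 0.05. The median was -0.08 as counted and -0.26 after length correction, where 1 was lower and 0 higher at that p. Gnptab, part of the enzyme that adds the phosphate tag to lysosomal proteins, was at 10.7, 8.27 and 2.76 CPM in Lama4-/- libraries, against 23.6, 25.9 and 32.9 CPM in wild type libraries. Its log2 fold change was -1.92 as counted (edgeR adjusted p = 0.247, DESeq2 adjusted p = 0.0190) and -1.39 with the trend removed (edgeR adjusted p = 0.557). The sorting adaptors Gga3 and Gga1 were at -2.14 and 0.38. Igf2bp2, which binds Igf2 mRNA, was at 0.363 to 0.840 CPM in Lama4-/- libraries and 1.37 to 3.09 CPM in wild type libraries.

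**Figure D5:**
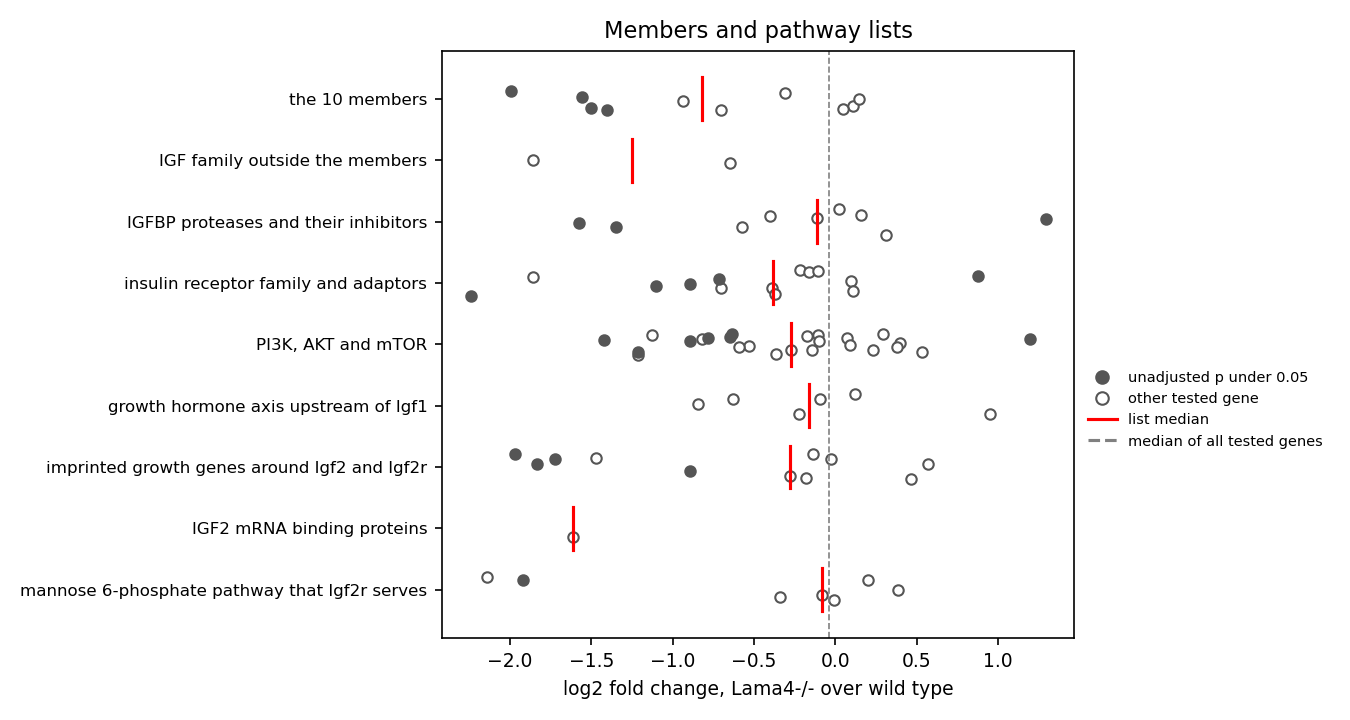
Log2 fold change, Lama4-/- over wild type, of the 10 IGF genes and of the tested genes in 8 pathway lists, with filled points for an unadjusted p under 0.05, red lines for list medians and a dashed line for the median of all tested genes (-0.04). The median of the 10 IGF genes is -0.82 and that of the PI3K, AKT and mTOR list is -0.27.

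Neutrophil, monocyte and erythroid markers were higher on average in Lama4-/- libraries, with ranges that overlapped wild type. Neutrophil and monocyte markers summed to 74.5 to 665 CPM in Lama4-/- libraries and 23.3 to 98.0 CPM in wild type libraries, with 8 of 8 tested genes at a positive log2 fold change, led by S100a9. Ccr2 is not analysed here. Erythroid markers summed to 1433 to 3917 CPM in Lama4-/- libraries and 314 to 1741 CPM in wild type libraries, with 9 of 10 at a positive log2 fold change, led by Hbb-bs. Endothelial markers summed to 0.120 to 2.32 CPM in Lama4-/- libraries and 7.36 to 10.03 CPM in wild type libraries. Osteoclast markers, led by Ctsk, summed to 284 to 483 CPM in Lama4-/- libraries and 252 to 288 CPM in wild type libraries. That sum is mostly Ctsk, at 332, 229 and 460 CPM in Lama4-/- libraries, against 230, 228 and 232 CPM in wild type libraries. Acp5 was at or below 31.2 CPM in every library, so the sum is not a measure of osteoclast content. Macrophage markers, led by Vcam1, summed to 260.4 to 445 CPM in Lama4-/- libraries and 337 to 504 CPM in wild type libraries, with Adgre1 at or below 8.18 CPM in every library. The sum is mostly Vcam1, and 6 of the 8 tested macrophage markers had a positive log2 fold change. For 4 of the 8, Lyz2 among them, each Lama4-/- library was above each wild type library, as for 10.3% of tested genes. Lyz2, second in level, was at 88.6, 74.01 and 36.5 CPM in Lama4-/- libraries, against 20.3, 11.5 and 18.7 CPM in wild type libraries. B and plasma cell, T and NK cell and megakaryocyte markers each summed to at most 16.1 CPM in Lama4-/- libraries and 21.4 CPM in wild type libraries. The part of these cells in the differences of the IGF genes was not tested.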

How the data were processed

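Libraries were SMART-Seq v4 cDNA with Nextera XT, read as short single ends without strand, per the labels' protocols. The submitters' processing notes name STAR 2.6.1d, featureCounts, DESeq2 and the GRCm38 build. The deposited table holds whole-number counts, and a normalized signal that is each count times 1 constant per library. Their block headings in the table are exchanged, so the whole-number block was used as the counts. The authors' log2 fold changes and p-values come from the same deposited table and are quoted only as theirs. Their test was DESeq2 on the same libraries, so it adds no separate evidence. For Igf1r the unadjusted p was 3.22e-05 in both DESeq2 fits, at a log2 fold change of -1.66 in theirs and -1.99 here.

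Counts were analysed in edgeR 4.0.16 (R 4.3.3) with TMM scaling, filterByExpr by genotype and robust quasi-likelihood tests, with Benjamini-Hochberg adjustment over 14465 genes. DESeq2 1.42.0 and limma 3.58.1 voom were alternatives. CPM use TMM-scaled totals. Each SE is the size of the log2 fold change over the square root of F. Of the 25491 genes, 99.8% were found in GENCODE M21, which gave coordinates and lengths. The length trend was removed with an offset per gene and library, a lowess fit (span 0.3) of deviations on log10 of the longest transcript. On simulated Lama4-/- against wild type counts of 13670 genes that carried a length trend, edgeR recovered 49 of 100 genes changed 4-fold with 21 false calls, and with the trend removed 49 of 100 with 5 false calls. Sequences are from RefSeq (GRCm38.p6), matched by symbol for all 10 members.

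The members and lists were chosen with earlier results of these data known. Named are all 10 members, Lama4, list genes with a mean of at least 5 CPM and groups apart (at most 6 a list, by p, otherwise the 2 of smallest p), and the 3 genes most like Igf1 and Igfbp4. Some list genes that meet this rule are counted but not reported here by name. Each library was left out in turn, and scaling, filter, test, moderation and block were varied.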

Additional observations from a re-analysis of the deposited data

How the results depend on the processing

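Over 15 alternatives, Igf1 (-1.58 to -0.61), Igf1r (-2.36 to -0.75), Igf2r (-1.81 to -0.51), Igfbp5 (-1.64 to -0.86) and Igfbp3 (-2.13 to -0.34) kept a negative log2 fold change. The number of members past an adjusted p of 0.05 was 0 in edgeR and 4 lower in DESeq2, and those at an unadjusted p under 0.05 were 4, or 2 with the length trend removed and 5, with Igfbp3, without Lama4-/- replicate 2. Pathway genes past the adjusted threshold were 0, and 6 lower and 1 higher in DESeq2. At an unadjusted p under 0.05, 16 were lower and 3 higher, against 4 and 5 with the length trend removed. Of all genes in the length-corrected fit, 3.15% were lower and 4.94% higher at that p. Leaving out 1 library gave 9 to 20 pathway genes lower and 1 to 4 higher.

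Over all genes, 1 was lower at the adjusted threshold, 0 under upper-quartile scaling, limma voom, no robust moderation or the length correction, 11 (and 1 higher) with no filter, 568 (and 173 higher) in DESeq2, and 0 to 1 with a library left out. The cause was not tested.

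Signs turned for Igf2 in limma voom (-0.021) and without replicate 3 of either genotype (-0.38 to 0.41 with 1 library left out). They turned for Igfbp2 in limma voom (1.08), for Igfbp4 without Lama4-/- replicate 2 or wild type replicate 3 (-0.14 to 0.42 with 1 library left out), and for Igfbp6 without wild type replicate 3 (-0.54 to 0.22). They turned for Igfbp7 with the length trend removed (-0.26) and without Lama4-/- replicate 2 or wild type replicate 3 (-0.12 to 0.19). The cause was not tested. Igf2 and Igfbp2 were too low to be tested under the filter of 5 CPM, and at their depth only large differences could be seen.

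The replicate numbers are shared by both genotypes, and the labels do not say whether they pair samples. Same-numbered deviations correlated at 0.0534 to 0.160, and differently numbered ones at -0.0946 to 0.0205, so each library correlated best with its own number. These values are low and cannot settle whether the samples are paired. With the replicate block, 0 genes passed the adjusted threshold, the adjusted p of Igf1, Igf1r, Igf2r and Igfbp5 was 0.3005 in edgeR, and Igfbp2 turned to 0.12.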
